A study of Mus musculus with 12 samples.

Results

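The genes described here are 5 ligands of the epidermal growth factor receptor (Ereg, Areg, Hbegf, Tgfa and Btc), 3 ERBB receptors (Egfr, Erbb2 and Erbb3) and Errfi1, an inhibitor of these receptors. They were chosen by name, with their difference between genotypes already known, as 9 of the 17718 genes of the deposited count table; their differences are therefore given as a description, without a test. The libraries are RNA-seq of cultured, untreated CT26 cells, a line from a colon carcinoma of a BALB/c mouse, with 3 libraries of wild-type cells and 3 of cells in which Mll3 (now Kmt2c, a histone H3 lysine 4 methyltransferase) was knocked out. The other 6 of the 12 samples of the series, CUT&Tag and tumour single-cell libraries, were not analysed here. The knock-out libraries are named sg1, sg2 and sg3 after their column headers; whether these stand for replicates, guides or clones is not given in the sources used here. No source says that the libraries come from separate cultures, and p-values here measure the spread between libraries, which may be technical.

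EGFR family ligands are made as membrane-anchored precursors that are cut free by ADAM proteases. Binding lets ERBB receptors pair and signal through RAS and ERK and through PI3 kinase. ERBB2 binds no ligand of its own and acts as a partner, and ERBB3 has little kinase activity and acts mainly through its partners. Errfi1, also called MIG6, is induced by receptor signalling, binds the kinase domain of the receptors and damps them. In the intestine these ligands support growth of the epithelium and its repair.

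Libraries held 9559658 to 13406013 counts, where 1 count is 0.0746 to 0.105 CPM (counts scaled by library size). Levels below are CPM scaled with TMM factors, given as mean ± SD over 3 libraries, and differences are log2 fold changes of knock-out over wild-type with the standard error (SE) of edgeR's fit. Kmt2c, the targeted gene, had 24.9 to 26.2 CPM in the wild-type group and 11.2 to 16.0 CPM in the other, so its transcript was still present in every knock-out library; the protein was not measured in the data used here. Of 10 epithelial markers, 4 were measured, with a summed level of 53.0 to 55.5 CPM in wild-type and 161 to 174 CPM in knock-out libraries; Epcam and Cdh1 were not analysed here. The 5 measured of 10 immune markers summed to 15.2 to 17.3 and 14.2 to 18.8 CPM, with at most 4 counts of Ptprc (CD45) in any library. Within that sum Lyz2, lysozyme, rose from 0.553 ± 0.307 to 8.80 ± 0.535 CPM (edgeR adjusted p = 1.37e-15) and Csf1r, a macrophage growth factor receptor, fell from 15.2 ± 1.02 to 6.72 ± 1.55 CPM (edgeR adjusted p = 2.28e-08). The 8 measured of 10 fibroblast and endothelial markers summed to 1009 to 1027 and 1323 to 1362 CPM. Most of that sum was Col1a2, at 880 ± 6.45 and 1009 ± 11.7 CPM, while Col1a1 had 95.1 ± 10.6 and 283 ± 9.87 CPM. Of the 6 tested, 5 rose, 0 fell and 1 did not pass at an edgeR adjusted p under 0.05. That is 83.3% beside 66.2% of all tested genes, and their median log2 fold change was 1.08. The part of these marker differences in the results below was not tested, and fewer cells with a transcript cannot be told apart from less transcript per cell.

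Of the 9 members, 8 had enough counts to enter the fit. The counts that follow describe the values by which the members were chosen, and nothing is read from them. At an adjusted p under 0.05, 6 were lower in the knock-out (Ereg, Areg, Hbegf, Tgfa, Erbb2 and Errfi1), 1 was higher (Btc) and 1 did not pass (Erbb3). Among all 13013 genes tested, 66.2% passed, 33.2% lower and 33.1% higher. The groups did not overlap for 7 of the 9, 5 lower and 2 higher, where the share among all tested genes was 68.7% (34.3% lower and 34.4% higher). Against a required 1.5-fold change (glmTreat), 4 members were lower (Ereg, Areg, Hbegf and Errfi1) and 0 higher, where 20.0% of all tested genes passed. The median log2 fold change of the 8 was -0.83, against 0.02 for all tested genes. Ereg, Areg, Hbegf and Errfi1 carried the large differences, and the calls of Tgfa and Erbb2 were each lost in 9 of 14 other fits and at an adjusted p of 0.01.

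Ereg encodes epiregulin, a ligand of EGFR and ERBB4, and lies on chromosome 5 (ENSMUSG00000029377, 91074617 to 91093649, mm10). It stood at 483, 475 and 451 CPM in wild-type replicates 1, 2 and 3, and at 85.2, 95.0 and 93.8 CPM in sg1, sg2 and sg3. Every knock-out library was far below every wild-type library. The means were 470 ± 17.0 and 91.3 ± 5.38 CPM, a 5.14-fold lower level in knock-out libraries (log2 fold change -2.36, SE 0.0458). Of the other tested genes, 75 had a lower log2 fold change and 12937 a higher one.

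Areg, which encodes amphiregulin, a ligand of EGFR alone, begins 46.0 kb beyond the end of Ereg (ENSMUSG00000029378, chromosome 5, 91139599 to 91148432). Its levels were 58.9, 55.1 and 55.0 CPM in wild-type replicates 1, 2 and 3 and 11.0, 10.3 and 10.4 CPM in sg1, sg2 and sg3. The libraries of each genotype lay close together and the groups were well apart. The knock-out level was 5.35-fold lower (log2 fold change -2.42, SE 0.104). The count ratio of Ereg to Areg within a library was 8.34 ± 0.250 for wild-type and 8.68 ± 0.796 for knock-out libraries, and the groups overlapped, so these neighbours were lower by factors that were not separable at this spread.

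Hbegf encodes heparin-binding EGF-like growth factor, a ligand of EGFR and ERBB4 (ENSMUSG00000024486, chromosome 18, 36504927 to 36515805). It was at 151, 165 and 148 CPM in wild-type replicates 1, 2 and 3 and at 65.3, 63.8 and 67.4 CPM in sg1, sg2 and sg3. The groups did not overlap, and the level was 2.36-fold lower in knock-out libraries (log2 fold change -1.24, SE 0.0570). The count ratio of Ereg to Hbegf was 3.04 ± 0.162 for wild-type and 1.40 ± 0.0924 for knock-out libraries, without overlap of the groups, so Hbegf was lowered less than Ereg.

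Tgfa, which encodes transforming growth factor alpha, a ligand of EGFR (ENSMUSG00000029999, chromosome 6, 86195038 to 86275744), was expressed at a low level. It had 11.1, 10.5 and 11.9 CPM in wild-type replicates 1, 2 and 3 and 6.75, 11.3 and 6.73 CPM in sg1, sg2 and sg3. Library sg2 lay within the wild-type range while the other knock-out libraries were below it. The log2 fold change was -0.42 (SE 0.182); it was -0.74 without sg2 and -0.30 without either sg1 or sg3, where the call was lost. It was also lost without wild-type replicate 1 or 3, at -0.43 and -0.39. The coefficient of variation among knock-out libraries was 32.0%, against 10.5% from counting alone.

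Btc encodes betacellulin, a ligand of EGFR and ERBB4, and is the third ligand gene of the chromosome 5 cluster (ENSMUSG00000082361, 91357261 to 91402994). It moved the other way from its neighbours, with 6.99, 3.88 and 7.33 CPM in wild-type replicates 1, 2 and 3 and 9.20, 12.2 and 9.61 CPM in sg1, sg2 and sg3. All knock-out libraries were above all wild-type libraries, with 38 to 89 counts per wild-type library and 94 to 141 per knock-out library. This was a 1.70-fold higher level (log2 fold change 0.76, SE 0.200), and without wild-type replicate 2, the lowest library, the log2 fold change was 0.53. Btc did not pass against a required 1.5-fold change.

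**Figure D1:**
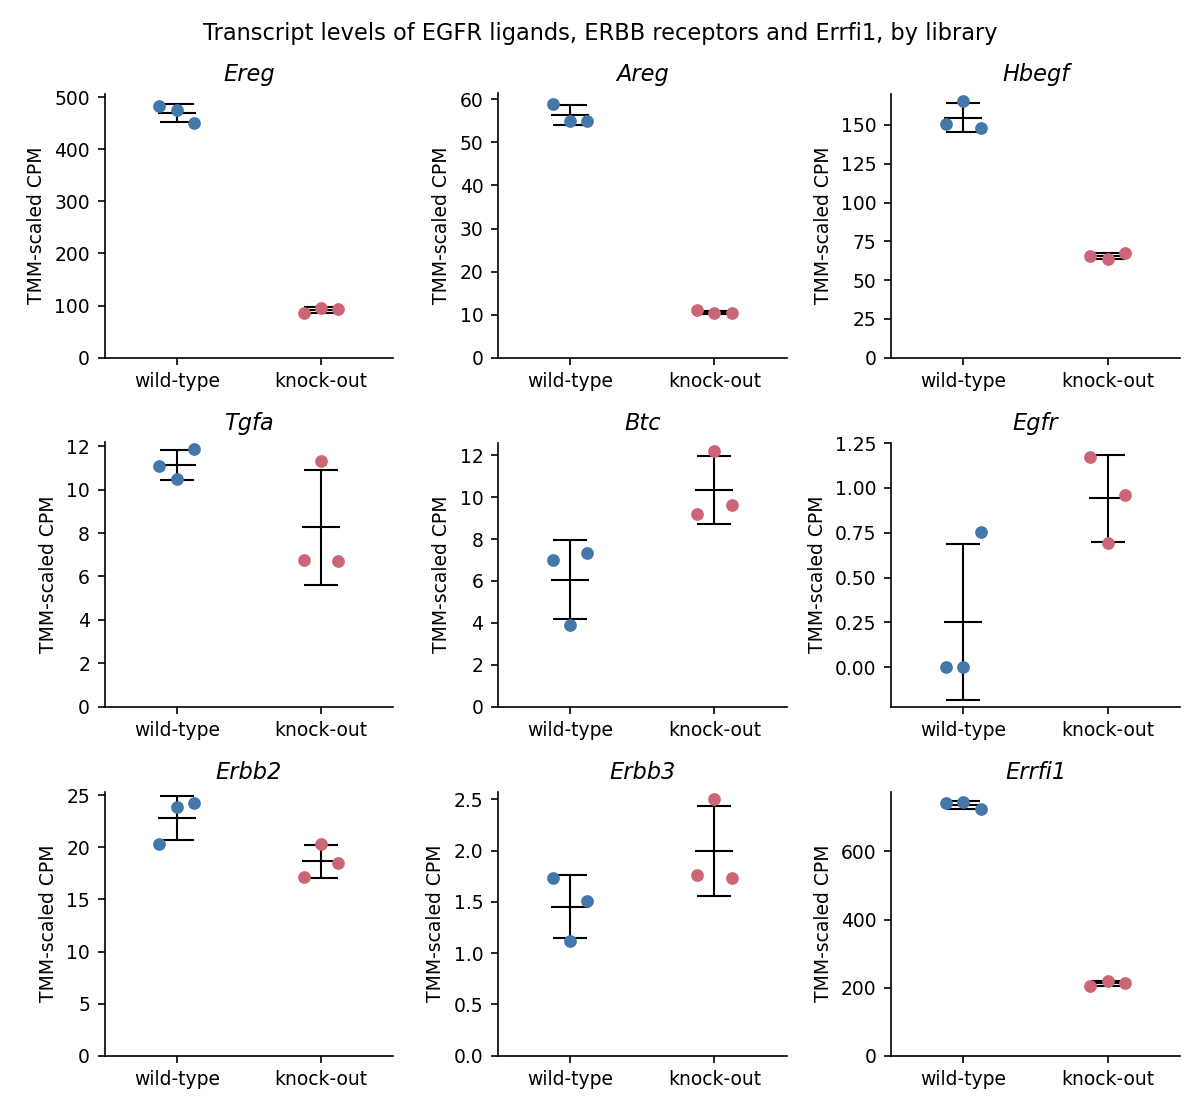
TMM-scaled CPM (linear axes) of each of the 9 genes in the 3 wild-type and 3 knock-out libraries; points are libraries, and bars are the mean and SD. Ereg, Areg, Hbegf and Errfi1 were lower in every knock-out library, Btc was higher, and Egfr was at 0 in 2 wild-type libraries.

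Summed over the 5 ligand genes, the level was 711, 710 and 673 CPM in wild-type replicates 1, 2 and 3 and 177, 193 and 188 CPM in sg1, sg2 and sg3, a ratio of means of 3.75. Longer transcripts draw more reads and no transcript lengths were used here, so the make-up of this sum was compared only between libraries and not between genes. Ereg gave 66.9% to 67.9% of ligand counts per wild-type library and 48.0% to 49.9% per knock-out library. Exact binomial 95% intervals of these Ereg shares, which cover counting error only, reached from 65.8% to 68.9% over the wild-type and from 45.7% to 52.2% over the knock-out libraries. Hbegf gave 21.2% to 23.3% and 33.1% to 36.8%. Btc gave 0.546% to 1.09% and 5.12% to 6.33%, and Tgfa 1.48% to 1.76% and 3.58% to 5.88%. The ligand counts of the knock-out thus held smaller shares of Ereg and Areg and larger shares of Hbegf, Tgfa and Btc, with no overlap of the groups. These shares add up to the whole and restate the values by which the members were chosen, so they are not separate results. A smaller Ereg share makes others larger: the Hbegf and Tgfa shares were larger although their log2 fold changes were -1.24 and -0.42.

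**Figure D2:**
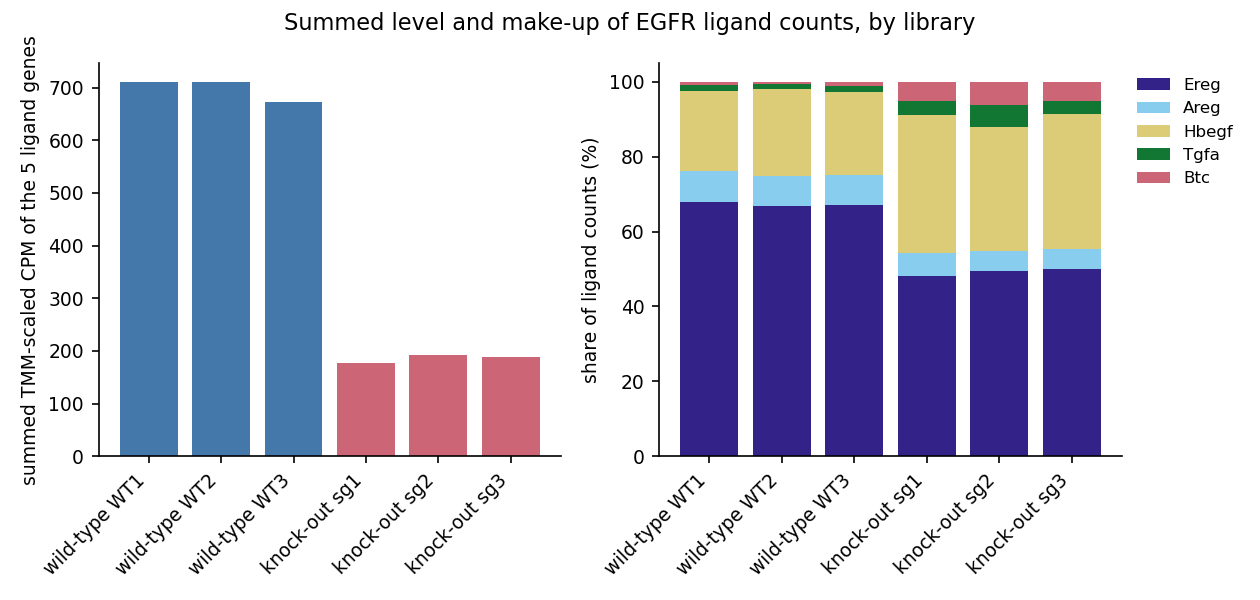
Left, summed TMM-scaled CPM of the 5 ligand genes in each of the 6 libraries; right, the share of the summed ligand counts that came from each gene, in percent. The sum lay between 673 and 711 CPM for wild-type and between 177 and 193 CPM for knock-out libraries, and the mean Ereg share was 67.3% and 49.1%.

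The receptors were measured at far fewer counts than Ereg or Hbegf. Egfr itself (ENSMUSG00000020122, chromosome 11, 16752203 to 16913907) had 0, 0 and 7 counts in wild-type replicates 1, 2 and 3 and 12, 8 and 10 counts in sg1, sg2 and sg3, and did not pass the filter on low counts. In the 2 wild-type libraries at 0, a floor of 3 counts allows a level of up to 0.236 and 0.306 CPM. No library exceeded 1.17 CPM. The groups overlapped, with wild-type replicate 3 at 0.755 CPM and sg2 at 0.692 CPM. The coefficient of variation among wild-type libraries was 173%, against 65.5% from counting alone, so intervals of counting error understate the spread between libraries. Over the wild-type libraries 7 counts were seen and over the knock-out libraries 30. Per TMM-scaled library size, a scaling of this ratio chosen after seeing the data, the knock-out level was 4.24 times as high (exact binomial 95% interval 1.82 to 11.4, counting error only), and per library total 4.61 times (1.98 to 12.4). All wild-type counts came from replicate 3. Without it the knock-out mean of 0.942 CPM was at least 3.08-fold higher than that floor, taken per library. Only wild-type libraries at 0 then remain, so this direction was fixed in advance and nothing is read from it. Wild-type replicate 3 also held 7 counts of Cd4 and 10 of Pecam1, against 0 and 3 in each of the other wild-type libraries. In sg1, sg2 and sg3 Cd4 had 4, 3 and 2 counts and Pecam1 had 19, 30 and 22. Every knock-out library thus held more Pecam1 counts than wild-type replicate 3. The part of these differences in the Egfr values was not tested. Wild-type replicate 3 had 28 genes with at least 5 counts that were at 0 in the other wild-type libraries, replicate 1 had 54 and replicate 2 had 25.

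Erbb2 (ENSMUSG00000062312, chromosome 11, 98412484 to 98437716) had 20.4, 23.9 and 24.3 CPM in wild-type replicates 1, 2 and 3 and 17.1, 20.3 and 18.5 CPM in sg1, sg2 and sg3. The highest knock-out library, sg2, lay just under the lowest wild-type library, replicate 1. The log2 fold change was -0.28 (SE 0.121), 1.22-fold lower. The call was lost with other scalings (-0.12 for upper-quartile factors, -0.16 for library size alone), without wild-type replicate 2 or 3 (-0.25 each) and without sg1 or sg3 (-0.23 and -0.29).

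Erbb3, the neuregulin receptor (ENSMUSG00000018166, chromosome 10, 128567523 to 128589635), had 22, 11 and 14 counts in wild-type replicates 1, 2 and 3 and 18, 29 and 18 counts in sg1, sg2 and sg3. At 1.12 to 1.73 CPM for wild-type and 1.73 to 2.51 CPM for knock-out libraries the groups touched without overlapping. The log2 fold change was 0.45 (SE 0.395), and the ratio of the 65 to the 47 counts was 1.37 per TMM-scaled library size (exact binomial 95% interval 0.925 to 2.03, counting error only). Per library total it was 1.49 (1.01 to 2.21), so whether the interval held 1 depended on the scaling. It did not pass at this depth in the main analysis or in any of 13 others.

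Errfi1 (ENSMUSG00000028967, chromosome 4, 150853796 to 150868889) was at 743, 744 and 723 CPM in wild-type replicates 1, 2 and 3. In the knock-out it was at 205, 219 and 212 CPM in sg1, sg2 and sg3. Within each genotype the libraries differed by a coefficient of variation of 1.60% and 3.36%, and the genotypes were far apart. The means were 737 ± 11.8 and 212 ± 7.13 CPM, a 3.47-fold lower level in knock-out libraries (log2 fold change -1.80, SE 0.0382). The count ratio of Ereg to Errfi1 was 0.623 to 0.650 in the wild-type group and 0.416 to 0.442 in the other, so the inhibitor was lowered less than Ereg. Errfi1 was lower by more than Hbegf, Tgfa or Erbb2 on the log2 scale.

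Upstream sequences of RefSeq (GRCm38.p6, the assembly of mm10) matched 6 members, with 7 start sites because Errfi1 has 2; none was matched for Ereg, Hbegf and Erbb3. The 250 bases before the start are shown for Areg and for the second Errfi1 start, whose genes were both much lower in the knock-out, and for Btc, the neighbour that was higher. The Areg window is at chr5:91139349-91139598 (plus strand), that of Errfi1 at chr4:150854820-150855069 (plus strand) and that of Btc at chr5:91402995-91403244 (minus strand). Capitals mark matches on either strand to 8 motifs: AP-1 (TGANTCA), CRE, the cyclic AMP response element (TGACGTCA), the CArG box bound by SRF, ETS (CCGGAAGT), TEAD (GGAATG), GC box (GGGCGG), the CCAAT box, spelled as its name, and the TATA box of basal transcription (TATAAA).
Areg: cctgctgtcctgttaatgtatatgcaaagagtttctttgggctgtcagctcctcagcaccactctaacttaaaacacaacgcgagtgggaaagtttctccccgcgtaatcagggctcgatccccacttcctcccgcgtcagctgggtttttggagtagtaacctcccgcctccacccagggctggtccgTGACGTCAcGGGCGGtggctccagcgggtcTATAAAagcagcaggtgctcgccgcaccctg
Errfi1: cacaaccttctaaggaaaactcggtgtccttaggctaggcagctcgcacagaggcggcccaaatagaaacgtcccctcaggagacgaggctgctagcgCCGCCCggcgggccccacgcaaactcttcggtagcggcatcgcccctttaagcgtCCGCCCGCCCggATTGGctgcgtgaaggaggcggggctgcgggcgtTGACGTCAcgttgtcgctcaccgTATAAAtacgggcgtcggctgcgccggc
Btc: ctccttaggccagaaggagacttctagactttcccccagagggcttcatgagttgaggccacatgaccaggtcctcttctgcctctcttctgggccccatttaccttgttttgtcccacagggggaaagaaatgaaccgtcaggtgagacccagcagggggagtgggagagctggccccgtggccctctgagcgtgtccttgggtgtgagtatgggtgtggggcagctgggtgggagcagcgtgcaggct
The Areg window and the second Errfi1 window each hold a palindromic CRE, from 61 to 54 bases before the start in Areg and from 51 to 44 bases before it in Errfi1, and each holds a TATA box closer to the start. These are 2 of the 7 windows of members; the first Errfi1 window, at the start of the listed gene span, holds no CRE, TATA box or GC box and has 1 TEAD match. Of 32851 such windows of all genes, 1.55% hold this CRE and 12.4% this TATA box. Each also has a GC box, found in 32.7% of all windows, and in the second Errfi1 window 2 reverse-strand GC boxes overlap. None of the 8 motifs matched in the Btc window. The AP-1, CArG and ETS letters matched in none of the 7 windows of members; they occur in 6.75%, 1.47% and 2.88% of all windows. A match of letters is not a measured site, and no binding was measured in the data used here.

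To show whether neighbours shared a difference, each member was set beside the tested genes within 5 Mb that are not among the 9 members. Around Ereg, 36 genes had a median log2 fold change of -0.37, and all 36 had a higher value than Ereg; Areg, not counted among them, was lower still. With that median subtracted Ereg was at -1.99, Areg at -2.05 and Btc at 1.14. Around Hbegf, 88 genes had a median of -0.08, and 3 of them had a lower value than Hbegf. The 107 genes around Errfi1 had a median of 0.21, which put Errfi1 at -2.01 relative to its region. Tgfa and Erbb2 lay in regions with medians of 0.15 and 0.12, and stood at -0.57 and -0.41 relative to them. For none of the 8 members did the direction depend on the region.

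**Figure D3:**
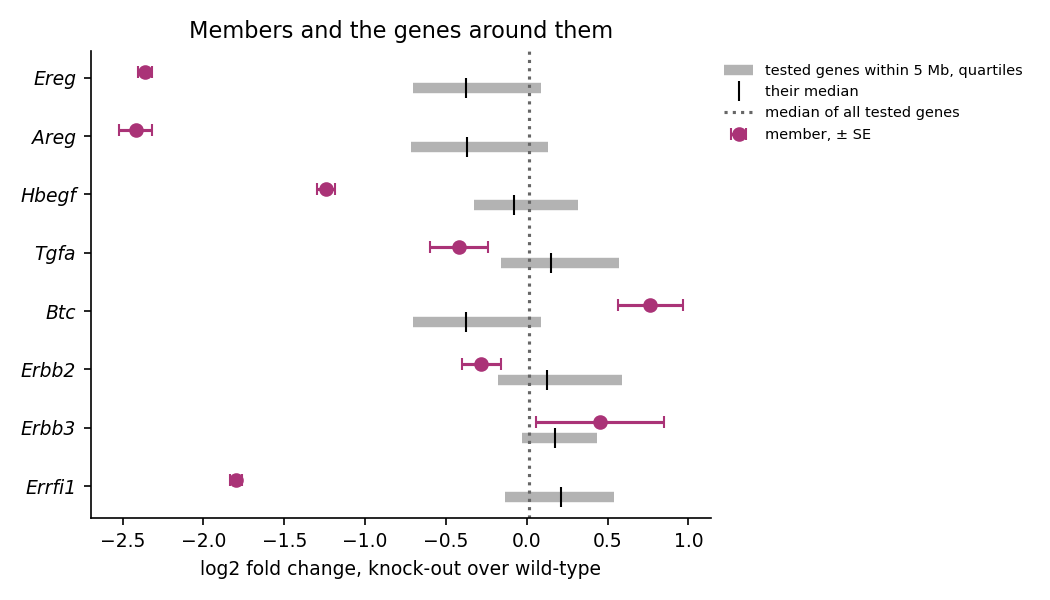
Log2 fold change of knock-out over wild-type of the 8 tested members (points, ± SE) with the quartile range and median of the tested genes within 5 Mb that are not members (grey bars and ticks); the dotted line is the median of all tested genes. All 8 lie outside the quartile range of their regions, Ereg, Areg, Hbegf, Tgfa, Erbb2 and Errfi1 below it and Btc and Erbb3 above it, with Erbb2 and Erbb3 outside by less than their SE.

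Within 1 Mb of the Ereg, Areg and Btc cluster, 19 other genes were tested, of which 10 fell, 3 rose and 6 did not pass, with a median of -0.39. Among all tested genes 66.2% passed, 33.2% lower and 33.1% higher. Gm19610, which overlaps the first bases of Ereg, was at 16.9 ± 1.96 CPM and fell to 5.03 ± 0.905 CPM (log2 fold change -1.75, SE 0.176, edgeR adjusted p = 5.39e-13). Its reads cannot be told apart from those of Ereg where they overlap, since no source says whether counting used the strand. Mthfd2l, a mitochondrial folate enzyme gene, and Cxcl1, a neutrophil attractant, fell by 0.59 and 0.76 on the log2 scale, and the call of Cxcl1 was lost without sg1 (-0.53, edgeR adjusted p = 0.0698). Epgn, the fourth EGFR ligand gene of the cluster, encodes epigen and had 5 counts over the wild-type and 7 over the knock-out libraries, too few to test.

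Farther out, Cxcl10, an interferon-induced chemokine, Art3 and Sdad1 fell by 1.39, 1.25 and 0.91 on the log2 scale, and Uso1, Ankrd17, Rchy1 and Cox18 by 0.56, 0.39, 0.37 and 0.26. The call of Cox18 was lost in 9 of 15 other analyses, among them those without wild-type replicate 1 or 2 (-0.27 each) or without sg3 (-0.24). Afp, the alpha-fetoprotein gene, was at 7.62 ± 0.822 CPM and rose to 35.6 ± 2.22 CPM (log2 fold change 2.23, SE 0.129), and U90926 and Cdkl2 rose by 2.77 and 0.41 on the log2 scale. Gm9958, Rassf6, Thap6, Odaph, G3bp2 and Naaa did not pass, with log2 fold changes from -0.74 for Odaph to 0.23 for Naaa. The lowest values of the window were those of Areg, Ereg and Gm19610, while Btc, 209 kb beyond Areg, was among the genes with a higher level in the knock-out.

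**Figure D4:**
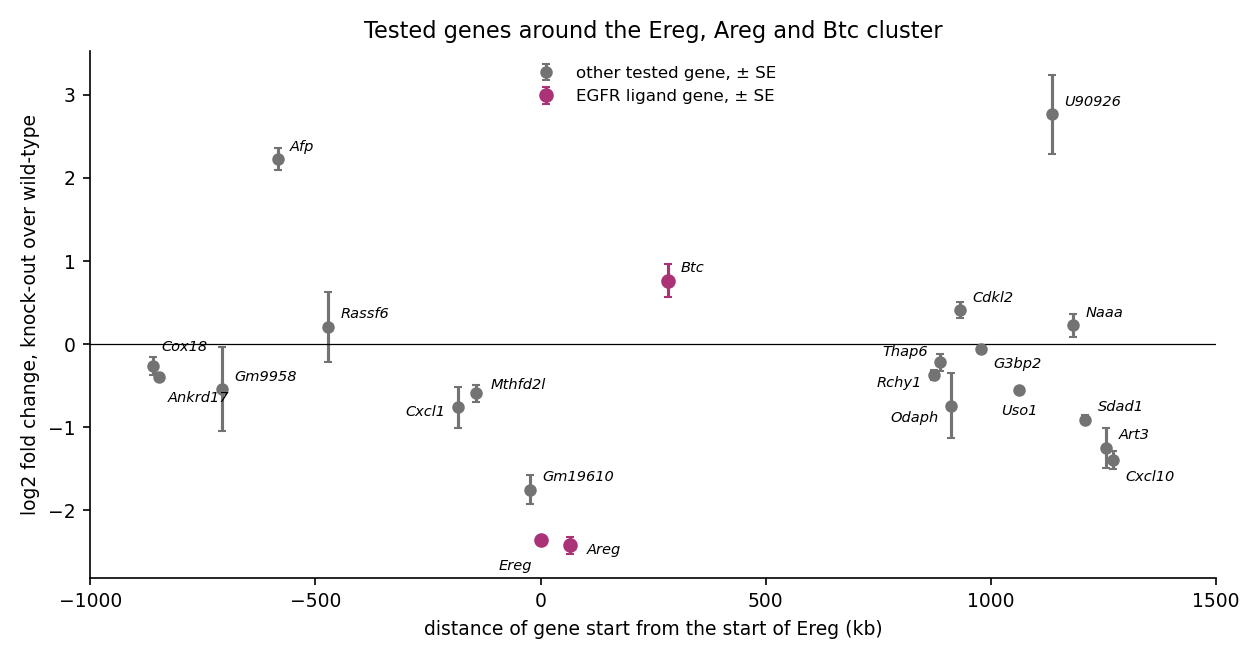
Log2 fold change of knock-out over wild-type (± SE) of the 22 tested genes within 1 Mb of the ligand cluster, by position. The axis, labelled as gene start, is the distance in kb of each gene's lower coordinate from that of Ereg. For a minus-strand gene such as Btc this is the end of the gene and not its transcription start. Ereg and Areg, at -2.36 and -2.42, are the lowest points, Gm19610 beside them is at -1.75 and Btc is at 0.76.

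Other ligands of the family were lower, higher or did not pass. Of 7 listed genes, 5 were measured and 4 tested: 1 fell, 1 rose and 2 did not pass, so that 50% passed beside 66.2% of all tested genes. Nrg3 and Erbb4 were not analysed here. Nrg1, neuregulin 1, a ligand of ERBB3 and ERBB4, was at 94.1 ± 2.90 CPM and fell to 61.7 ± 2.06 CPM (log2 fold change -0.61, SE 0.0631, edgeR adjusted p = 1.49e-12). It lies on chromosome 8 in a region whose median was -0.58, so its fall was close to that of its region. Nrg2 rose from 1.46 ± 0.410 to 5.79 ± 0.411 CPM (2.01, SE 0.309, edgeR adjusted p = 9.37e-08). It shares the region of Hbegf on chromosome 18, where Hbegf was lower. Nrg4, an ERBB4 ligand, had 21.8 ± 1.73 and 19.4 ± 3.15 CPM, and Egf had 1.91 ± 0.775 and 1.13 ± 0.369 CPM; their edgeR adjusted p were 0.248 and 0.112, the latter 0.0489 without wild-type replicate 2.

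Genes of ligand shedding moved both ways. Of 11 tested, 5 rose and 5 fell, with a median of 0.03, so that 90.9% passed beside 66.2% of all tested genes. Adam17, the main sheddase of Areg, Ereg, Hbegf and Tgfa, was the 1 gene that did not pass, with 50.3 ± 4.05 and 51.5 ± 3.41 CPM (log2 fold change 0.03, SE 0.0790, edgeR adjusted p = 0.749). Rhbdf2, which encodes iRhom2, a partner that brings ADAM17 to the cell surface, fell from 34.9 ± 4.88 to 17.1 ± 1.60 CPM (-1.02, SE 0.114, edgeR adjusted p = 1.32e-11), and Frmd8, which stabilises that complex, fell by 0.65. The related Rhbdf1 rose by 0.31, as did Adam10, the main sheddase of Btc, by 0.24; Adam17, Frmd8, Rhbdf1 and Adam10 were named after their values were seen. Adam9, on chromosome 8 in a region with a median of -0.43, fell by 0.78. Rhbdl2, a rhomboid protease, and Timp3, an inhibitor of ADAM17, rose by 2.58 and 2.53 on the log2 scale from 0.705 ± 0.191 and 0.611 ± 0.125 CPM.

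Of 18 tested adaptors and effectors of the receptors, 8 fell, 4 rose and 6 did not pass, so that 66.7% passed beside 66.2% of all tested genes. The median of -0.17 was -0.01 with upper-quartile factors, where 7 fell and 7 rose, and -0.05 with library size alone. The genes with the smallest p fell: Ptpn11, the phosphatase SHP2, by 0.49, Pik3cb, a catalytic subunit of PI3 kinase, by 0.73, the adaptor Crkl by 0.74 and Sos2, an exchange factor for RAS, by 0.83 on the log2 scale. The 4 that rose were Pik3r1, Plcg1, Nck2 and Pik3ca, by 0.67, 0.58, 0.51 and 0.43. They were named after their values were seen. Among 18 tested genes of receptor endocytosis and restraint, 10 fell, 4 rose and 4 did not pass, so that 77.8% passed beside 66.2% of all tested genes. The median of -0.23 was -0.07 with upper-quartile factors, where 6 fell and 6 rose, and -0.10 with library size alone. Ptpn12, a tyrosine phosphatase, fell from 166 ± 4.88 to 82.0 ± 1.42 CPM (-1.02, SE 0.0526, edgeR adjusted p = 1.50e-24), Lrig2, a leucine-rich repeat membrane protein, fell by 1.19 and Stam, a sorting adaptor, by 0.74. Sh3kbp1, a partner of the ubiquitin ligase CBL, rose by 0.45.

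Targets of ERK signalling were tested as 9 genes that are used to read MAPK activity. Of these, 4 fell, 3 rose and 2 did not pass, so that 77.8% passed beside 66.2% of all tested genes. Their median of -0.01 turned to 0.15 under upper-quartile factors and to 0.11 under library size alone. With either of these scalings 5 of the 9 rose and 3 fell. Spry4, a feedback inhibitor that lies on chromosome 18 near Hbegf, fell from 185 ± 1.82 to 61.7 ± 3.54 CPM (-1.59, SE 0.0548), and Epha2, an ephrin receptor, fell by 1.35 and Phlda1 by 0.49 on the log2 scale. Ccnd1, cyclin D1, rose by 0.22 (SE 0.0347, edgeR adjusted p = 1.25e-07). Dusp6 and Dusp4, ERK phosphatases that ERK signalling induces, did not pass: Dusp6 had 168 ± 3.20 and 166 ± 3.51 CPM (-0.01, SE 0.0462, edgeR adjusted p = 0.854) and Dusp4 had 118 ± 4.70 and 128 ± 2.56 CPM (0.11, SE 0.0521, edgeR adjusted p = 0.0582); both were named after their values were seen. Dusp4 lies on chromosome 8 in a region with a median of -0.61. Spry4 and Epha2 of this list, and the member Errfi1, were lower in the knock-out. With TMM factors Dusp6 was level within the spread of its libraries. Its value was also the median of the list, which turned with the scaling as given above. The rest of the list moved both ways: Spry2 fell by 0.46, and Etv4 and Etv5 rose by 0.32 and 0.19 on the log2 scale. Spry2, Etv4 and Etv5 were also named after their values were seen.

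**Figure D5:**
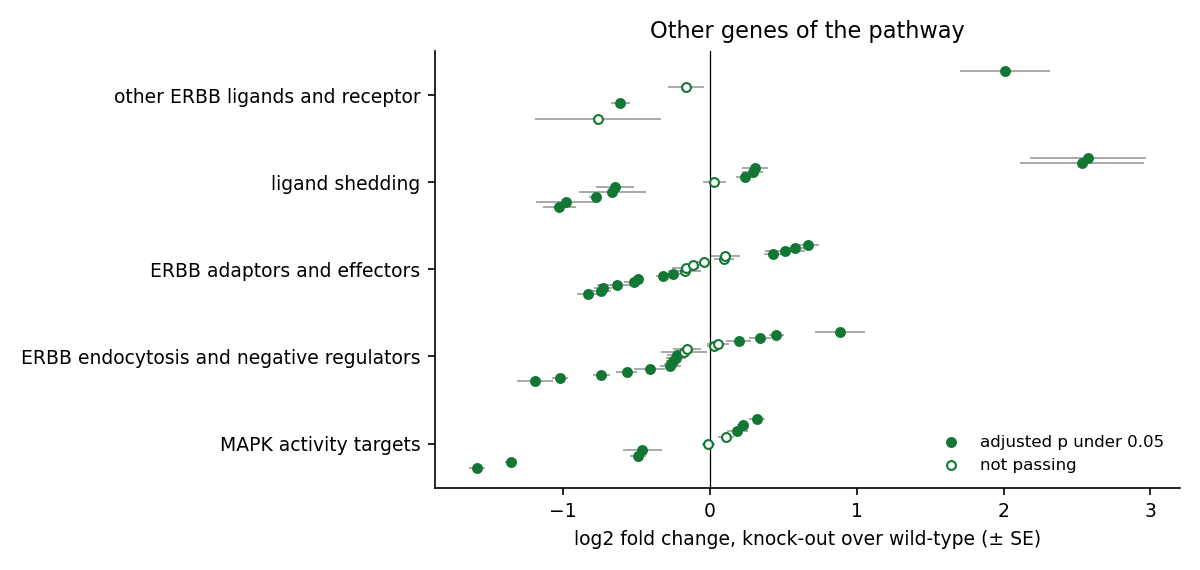
Log2 fold change of knock-out over wild-type (± SE) of the tested genes of 5 other lists of the pathway; filled points passed an adjusted p of 0.05 and open points did not. Each list has genes on both sides of 0, with Rhbdl2, Timp3 and Nrg2 above 2 and Spry4 and Epha2 the lowest of the ERK targets.

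The genes most like each member were taken by the root mean square difference of centred log2 CPM over the 6 libraries, among 12012 other genes; with only 2 genotypes this mostly reads the size of the difference between them. Ifi44, an interferon-induced gene, was nearest to Ereg (0.0385), followed by Areg (0.0836) and Erlin1 (0.0917). Nearest to Areg were Ereg, Ifi44 (0.0844) and Gpat3 (0.0870). Steap1 (0.0359), Pxdc1 (0.0365) and Pkn2 (0.0459) were nearest to Hbegf, and Stard5 (0.0336), Btaf1 (0.0469) and Ptpn22 (0.0484) to Errfi1. For Btc, Tgfa, Erbb2 and Erbb3 the nearest genes were Coq8a (0.0985), Gm6451 (0.102), Mllt10 (0.0327) and, among 12013 genes, Lrch1 (0.0814).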

How the data were processed

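The authors deposited 1 table of whole-number read counts for Ensembl genes. Per the labels' protocols, the libraries were strand-specific and made from polyA RNA; per the submitters' processing notes, fastp, STAR and HTSeq were among the tools and mm10 was the build, with no role or version stated. Neither the annotation release nor the strandedness of the counting is given in the sources used here. All genes listed have counts in at least 3 libraries. Symbols matched 17650 of 17718 identifiers, and RefSeq positions on GRCm38.p6 were matched by symbol for 15489. Wild-type columns were matched by group and number and knock-out columns by group alone.

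Genes were filtered with filterByExpr (minimum count 10, minimum total 15), scaled with TMM and tested in R 4.3.3 with edgeR 4.0.16 and limma 3.58.1 (quasi-likelihood F test, robust), with Benjamini-Hochberg adjustment over all 13013 tested genes at 0.05. Standard errors came from the F statistic. The pipeline was tested on simulated data. The alternatives, which included DESeq2 1.42.0, are in the closing section. The members, gene lists, motifs and rules were chosen with earlier results of these data known. Named genes are the members, the 4 smallest p of each other pathway list, all tested ERBB ligands, the tested genes within 1 Mb of the ligand cluster and the 3 genes most like each tested member (the nearest alone is given for Btc, Tgfa, Erbb2 and Erbb3). No transcript lengths were used, so levels were not compared between genes.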

Additional observations from a re-analysis of the deposited data

How the results depend on the processing

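The log2 fold changes of Ereg, Areg, Hbegf and Errfi1, described without a test, kept their direction under all 15 alternatives and ran from -2.40 to -1.99, -2.46 to -2.05, -1.28 to -1.08 and -2.01 to -1.64, region medians included. The median of all tested genes, 0.02, was 0.17 under upper-quartile scaling and 0.14 under library size alone. The share of calls that were higher went from 49.9% to 63.7% and 60.5%. Against a required 1.5-fold change glmTreat called 2602 genes (20.0%); the counts then were 0 members higher, 0 other ERBB ligands lower, 2 shedding genes higher and 3 lower, 0 adaptors higher and 3 lower, 0 endocytosis genes higher and 3 lower, and 0 ERK targets higher and 2 lower, fewer because small changes no longer count. With upper-quartile scaling 7 adaptors were higher, 6 endocytosis genes lower and 5 ERK targets higher, and with library size alone 5 ERK targets were higher. With the stricter filter 3 shedding genes were higher, because Rhbdl2 and Timp3 were not tested. With no filter 2 members were higher, Btc and Egfr. Leaving out 1 library at a time gave 1 to 2 members higher (2, with Egfr, without wild-type replicate 3), 4 to 6 members lower, 1 to 2 other ERBB ligands lower (2, with Egf, without wild-type replicate 2), 2 to 4 ERK targets higher and 8082 to 8717 genes in all. The direction of G3bp2 (-0.06) reversed with upper-quartile scaling (0.096) and library size alone (0.060), and that of Rassf6 (0.21) when 1 library was left out, its lowest and highest values being -0.20 (without sg2) and 0.52 (without sg1); the cause was not tested. No paired analysis was possible because the knock-out columns carry no replicate number from the labels. Region medians were subtracted from the members' fold changes alone, and the comparison of transcript lengths was not run because no transcript lengths were at hand. Depth limits Egfr, Erbb3 and Epgn, whose counts were at most 12, 29 and 4 per library.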
